A study of Homo sapiens with 9 samples.

Results

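The antiviral interferon-stimulated effector genes are the genes whose proteins carry out the antiviral state that interferons switch on. The 51 genes described here were taken by symbol from a list of such effectors, which was drawn up with earlier results of these data known, and all 51 were found among the 16199 genes listed in at least 1 library. They were followed in HaCaT cells, an immortalized human keratinocyte line, in which 3 groups of 3 libraries were sequenced. The untreated group was kept in serum free medium without a growth factor. The EGF group received epidermal growth factor at 10 nM for 24 h, and the bleogen pB1 group received bleogen pB1 at 1 µM for 24 h. Bleogen pB1 is a cystine-knot peptide from the cactus Pereskia bleo that acts on the EGF receptor, and the doses of both agonists differed, so that a difference between them is also a difference of dose. All 9 libraries came from this 1 wild-type line, in which the cells were confluent when they were treated, and the labels do not say whether the replicates were separate cultures. The p-values therefore measure the spread between these libraries, which may be technical.

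Type I and type III interferons bind receptors at the cell surface, and the kinases JAK1 and TYK2 then phosphorylate STAT proteins. Together with IRF9 these form ISGF3, a complex that binds the interferon-stimulated response element (ISRE) in the promoters of its target genes. The targets include sensors and signaling proteins as well as effectors that block viral entry, degrade RNA, halt translation or tag proteins. In the skin, keratinocytes form the outer barrier and are themselves able to make and answer interferons.

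Start-site windows from RefSeq (GRCh38.p14), reaching from 250 bases before to 50 bases after each annotated start, were found for 43 of the 51 genes, and GBP2, IFIT2, IFITM2, MX2, OAS2, OASL, TRIM22 and USP18 had no window. The windows were searched on both strands for the core of the ISRE (TTTC, any 2 bases, then TTTC). They were also searched for the gamma-activated site (GAS), TTCNNNGAA, the element bound by STAT dimers. The ISRE core was found in 30 of the 43 genes (69.8%), whereas 1195 of all 27305 genes with a window held it (4.38%). A window with 2 or more ISRE matches, which may overlap, was found for 15 of the genes, and for 0.311% of all genes. The GAS letters, which are shorter, were found in 13 of the 43 genes (30.2%) and in 9.38% of all genes. In IFITM1, EPSTI1, IFI27, BST2 and MX1 a GAS match overlapped an ISRE match, so the counts of the 2 motifs are not independent. Windows of a gene's several start sites can overlap, and counted once each the matches made up 50 positions in the genome, of which 39 lay within 150 bases upstream of a start site.

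The following windows of 200 bases end just before the start site and are printed 5′ to 3′ on the strand of the gene, with the matched letters in capitals. OAS1, IFIT1 and PARP9 are shown because, with OAS2, they had the smallest adjusted p-values after bleogen pB1 treatment, and ISG15 was added after its values were seen, as an abundant effector with overlapping elements. ISG20 and ZC3HAV1 are shown as genes that did not fall with either agonist. The window of OAS1 was chr12:112906762-112906961 on the plus strand, with a GAS match. That of IFIT1 was chr10:89392423-89392622 on the plus strand, with a pair of ISRE matches. That of PARP9 was chr3:122564301-122564500 on the minus strand, with 1 ISRE match. That of ISG15 was chr1:1013297-1013496 on the plus strand, with overlapping ISRE matches. That of ISG20 was chr15:88638816-88639015 on the plus strand, with 1 ISRE match, and that of ZC3HAV1 was chr7:139109721-139109920 on the minus strand, with a GAS match.
OAS1: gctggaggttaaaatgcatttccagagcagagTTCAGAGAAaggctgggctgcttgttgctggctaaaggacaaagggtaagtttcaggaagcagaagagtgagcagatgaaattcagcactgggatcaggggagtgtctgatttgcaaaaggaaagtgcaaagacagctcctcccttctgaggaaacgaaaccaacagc
IFIT1: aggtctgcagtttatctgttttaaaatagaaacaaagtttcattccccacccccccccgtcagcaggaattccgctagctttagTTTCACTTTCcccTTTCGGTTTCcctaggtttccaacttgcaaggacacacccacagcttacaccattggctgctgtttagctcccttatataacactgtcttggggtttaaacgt
PARP9: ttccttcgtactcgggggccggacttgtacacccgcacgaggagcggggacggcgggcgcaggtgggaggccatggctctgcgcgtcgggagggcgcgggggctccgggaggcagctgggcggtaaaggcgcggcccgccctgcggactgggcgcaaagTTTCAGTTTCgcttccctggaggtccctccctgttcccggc
ISG15: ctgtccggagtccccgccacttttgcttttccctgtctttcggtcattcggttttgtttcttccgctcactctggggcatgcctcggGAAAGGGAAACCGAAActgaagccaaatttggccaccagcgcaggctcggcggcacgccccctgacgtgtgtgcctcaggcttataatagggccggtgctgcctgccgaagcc
ISG20: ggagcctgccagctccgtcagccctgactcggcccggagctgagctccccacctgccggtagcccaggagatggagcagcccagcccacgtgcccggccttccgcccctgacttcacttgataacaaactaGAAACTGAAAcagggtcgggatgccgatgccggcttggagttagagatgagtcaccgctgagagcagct
ZC3HAV1: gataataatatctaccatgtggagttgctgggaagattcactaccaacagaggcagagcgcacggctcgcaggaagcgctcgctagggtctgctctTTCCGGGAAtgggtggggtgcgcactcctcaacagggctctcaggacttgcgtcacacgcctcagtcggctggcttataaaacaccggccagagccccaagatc

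With the start site as position 0, the matches of IFIT1 began at -116 and -103, those of ISG15 at -113 and -107, that of PARP9 at -41, and that of ISG20 at -69. The PARP9 element is shared, since PARP9 and DTX3L are transcribed away from each other, and the same 10 bases (chr3:122564332-122564341) lay in the windows of both. A match describes letters in a window and is not a bound site. No ISRE match was found in the windows of ADAR, CMPK2, HERC6, IFI16, IFI35, OAS1, RNF213, SAMD9L, SP110, TRIM25, UBE2L6, XAF1 and ZC3HAV1, which says only that these letters are not there. The search fixed the gap at 2 bases, and elements with another gap were not covered. In the OAS1 window GAAA is repeated with a shorter gap (gaaacgaaa) near the start site, which was therefore not counted.

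**Figure D1:**
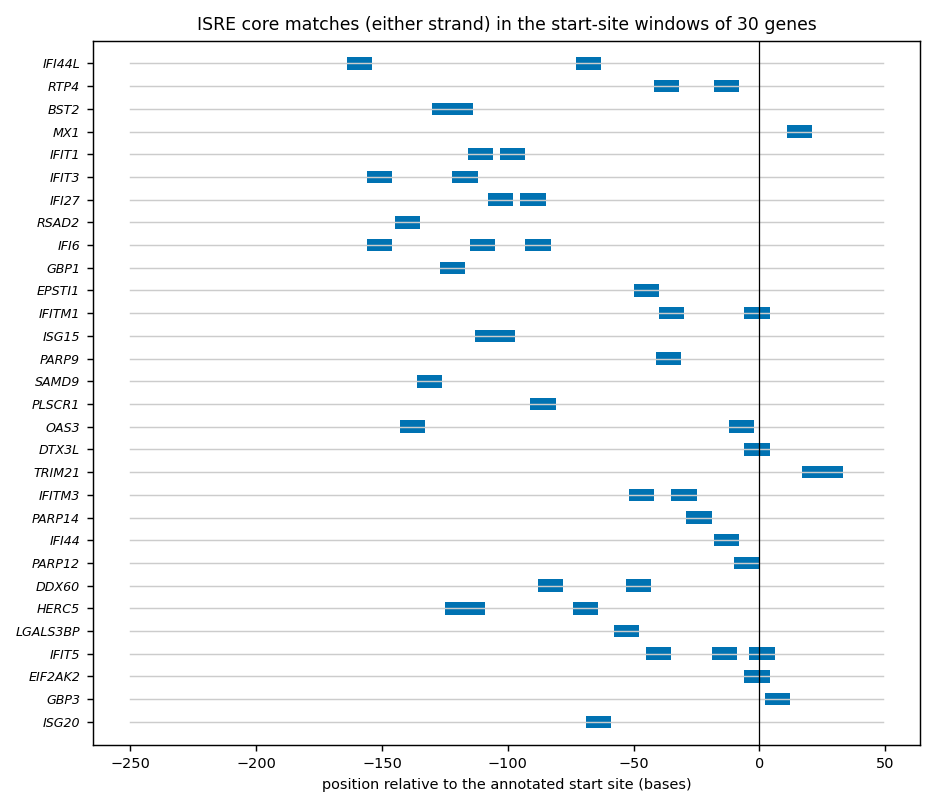
Positions of ISRE core matches on either strand (bars of 10 bases) in the start-site windows of the 30 genes that hold one, from 250 bases before to 50 bases after the start site at 0 (x axis, bases). For each gene the window with the most matches is drawn, genes are ordered from the largest fall with EGF at the top, and most bars lie within 150 bases upstream of the start site.

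Values in single libraries are given as CPM, the expected count scaled to a common library size after TMM normalization, and levels of different genes are compared as FPKM, which also divides by length. The libraries held 20288417 to 21320994 expected counts each, so that 3 counts corresponded to 0.141 to 0.148 CPM, and these limits cover counting error only. All 51 genes were listed in every library and all 51 passed the filter on low counts. A gene was counted as changed at an adjusted p of at most 0.05 with a log2 fold change of at least 0.5 in size, both from edgeR's quasi-likelihood test over 12394 genes, and fold changes are given with their standard error (SE). Exact permutation tests of 3 libraries against 3 cannot give a p below 0.1. The keratinocyte identity of the cells was checked with a list of 10 markers, whose summed FPKM was 7078 to 7940 in untreated, 7641 to 9069 in bleogen pB1 and 6938 to 7151 in EGF libraries. With EGF, 4 of the 10 rose, namely KRT6A, ITGA6, KRT14 and TP63, with log2 fold changes of 2.29, 1.30, 0.88 and 0.50, while KRT5 and CDH1 fell, by 1.12 and 0.66. With bleogen pB1 KRT6A rose, with a log2 fold change of 0.52, and the other log2 fold changes ran from -0.17 to 0.48, short of the fold limit. Their part in the results was not tested.

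Untreated HaCaT cells already carried these transcripts at high levels. The median FPKM of the 51 genes in untreated cells was 54.99, against 6.65 over the 15250 genes listed there, and 28 of the 51 were in the top 10% of listed genes. IFITM3, which blocks the fusion of viruses with endosomes, was highest at an FPKM of 2114 ± 302 (SD, n = 3). It was followed by IFITM1 at 1078 ± 139, by the ubiquitin-like modifier ISG15 at 742 ± 49.3, by IFI6 at 730.1 ± 101, and by the secreted glycoprotein LGALS3BP at 452 ± 32.4 FPKM. IFIT3 and OAS2 were next, at 289.6 ± 16.2 and 256 ± 27.1 FPKM. At the low end were GBP2 at 1.96 ± 0.221 and HERC5 at 1.28 ± 0.180 FPKM. ISG15 and IFI6, neighbors in this order, did not differ beyond their spread, and neither did IFIT3 and OAS2. The interferons themselves were barely counted. Of 22 interferon genes 8 were listed, none of them passed the filter on low counts, and no library held more than 13 counts of any of them. Their summed counts were 23 to 26 in untreated, 18 to 28 in bleogen pB1 and 7 to 16 in EGF libraries.

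After EGF treatment the effectors fell nearly as a whole, and after bleogen pB1 treatment a smaller number fell, by less. With EGF, 47 of the 51 genes fell (92.2%), where 21.8% of all tested genes fell, and 1 rose, where 15.1% of all genes rose. With bleogen pB1, 27 of the 51 fell (52.9%), where 1.26% of all tested genes fell, and 0 rose, where 0.218% of all genes did. DESeq2 and limma also found 0 of the 51 that rose past both limits with bleogen pB1. At an unadjusted p under 0.05 in edgeR, the 1 gene on the higher side was ZC3HAV1, at 0.26 (adjusted p = 0.16). By the adjusted p alone, with no fold limit, 34 were lower, where 2.55% of all genes were. The levels of 40 of the 51 did not overlap with the untreated ones and were lower, where 14.7% of all genes were, 1 did so and was higher, where 14.4% of all genes were, and with EGF this held for 49, where 35.9% of all genes were. Tested against the fold limit itself (edgeR's glmTreat), 1 gene, MX2, fell with bleogen pB1 (adjusted p = 0.046), where 0.0403% of all genes did, and 46 fell with EGF, where 14.6% of all genes did. The 27 genes were 17.3% of the 156 genes that fell with bleogen pB1. The median log2 fold change of the 51 genes was -2.0 with EGF and -0.55 with bleogen pB1, and that of all tested genes was -0.013 and -0.001. Both comparisons share the untreated libraries. The genes that fell kept 5.82% to 66.1% of the untreated level with EGF (median 24.3%) and 44.5% to 69.02% with bleogen pB1 (median 64.5%). In bulk RNA, fewer cells that express a gene and less RNA per cell cannot be told apart.

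The summed CPM of the 51 genes was 14532, 15072 and 16358 in untreated libraries in rising order. It was 10347, 11053 and 11964 with bleogen pB1, and 4976, 5110 and 5370 with EGF. These sums did not overlap between groups. Within groups the libraries were not alike: untreated replicate 1 was the highest untreated library for 36 of the 51 genes, although it was the highest for 28.5% of all tested genes. Bleogen pB1 replicate 1 was likewise highest in its group for 40 of the 51, against 39.6% of all genes, and EGF replicate 2 for 37, against 40.1%. Without untreated replicate 1 the number of genes that fell with bleogen pB1 was 20, without bleogen pB1 replicate 2 it was 21, and without bleogen pB1 replicate 1 it was 32. Without untreated replicate 1 IFITM1, RNF213, SAMD9L, PARP12, PARP14, SP110 and EPSTI1 no longer passed, and without bleogen pB1 replicate 2 IFITM1, RNF213, SAMD9, SAMD9L, PARP14 and EPSTI1 did not. IFITM1, SAMD9L, PARP14 and EPSTI1 also lost the call without bleogen pB1 replicate 3. IFITM1 and EPSTI1 lost it without untreated replicate 2 as well, and SAMD9L and PARP14 without untreated replicate 3. The calls of these genes with bleogen pB1 thus depended on single libraries more than the others. In all, 8 of the 27 genes lost the call with some library left out. The number that passed with EGF was 47 or 48 whichever library was left out, IFI16 being the gene lost, at -0.49 without EGF replicate 2.

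**Figure D2:**
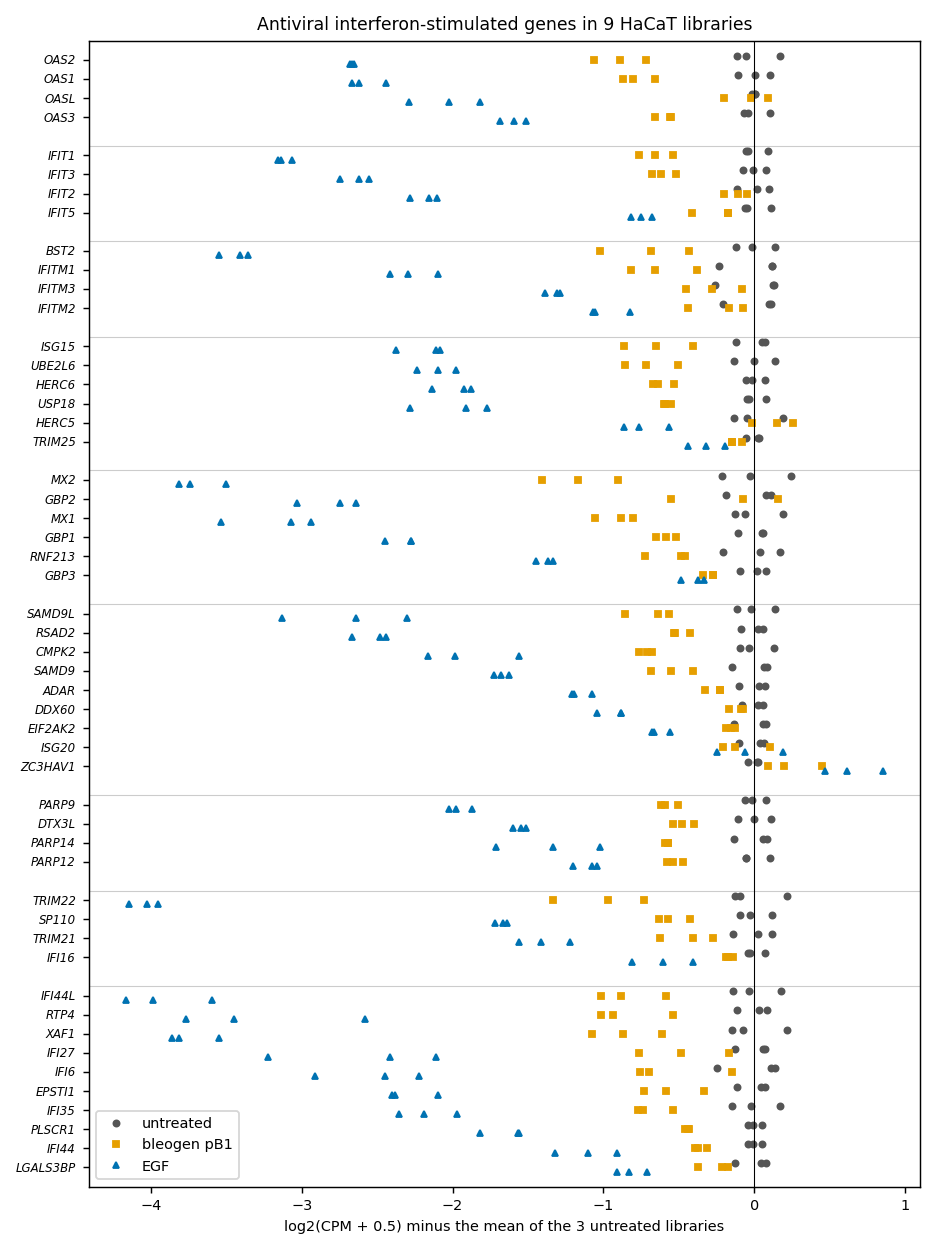
Level of each of the 51 genes in each of the 9 libraries, as log2(CPM + 0.5) minus the mean of the 3 untreated libraries (x axis), with genes grouped by family (y axis) and 1 point per library. EGF libraries (triangles) lie to the left for most genes of every family, and nearer to 0 for ISG20, TRIM25 and GBP3. Bleogen pB1 libraries (squares) lie mostly between EGF and untreated (circles). ZC3HAV1 is the 1 gene whose EGF and bleogen pB1 libraries all lie to the right of its untreated libraries.

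Of the 4 OAS genes, 3 fell with bleogen pB1 and 4 with EGF. The oligoadenylate synthetases sense double-stranded RNA and make the small messenger that activates the ribonuclease RNase L. OAS1, OAS3 and OAS2 lie side by side on chromosome 12 (OAS1 at 112905856 to 112933219, OAS2 at 112978395 to 113011723, GRCh38, GENCODE release 44). OAS1 was at 349.8, 327 and 302 CPM in untreated libraries, at 206, 178 and 186 CPM with bleogen pB1, and at 50.7, 59.4 and 52.5 CPM with EGF. The groups did not overlap, and its log2 fold change was -0.78 (adjusted p = 0.00022 in edgeR, SE 0.08) with bleogen pB1 and -2.59 (adjusted p = 1.6e-10, SE 0.08) with EGF. OAS2 went from 948, 811 and 777 CPM to 511, 402 and 454 CPM with bleogen pB1 and to 132, 134 and 131 CPM with EGF. Its log2 fold changes were -0.89 (adjusted p = 0.00022 in edgeR, SE 0.09) and -2.68 (adjusted p = 3.8e-10, SE 0.1). OAS3, the largest synthetase, had 1399, 1243 and 1267 CPM in untreated libraries, 889, 825 and 884 with bleogen pB1, and 404, 455 and 431 with EGF, with log2 fold changes of -0.59 and -1.60.

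OASL, whose protein lacks synthetase activity and lies on another part of chromosome 12 (121017763 to 121039246), did not pass with bleogen pB1. It was at 286, 282 and 286 CPM in untreated libraries and at 303, 248 and 281 CPM with bleogen pB1, so that these groups overlapped. The log2 fold change was -0.04 (adjusted p = 0.86 in edgeR, SE 0.1). With EGF it was at 80.3, 57.7 and 69.6 CPM, a log2 fold change of -2.04 (adjusted p = 7.1e-09 in edgeR, SE 0.1). The ratio of OASL to OAS1 counts, which does not depend on the library scaling, was 0.818, 0.863 and 0.948 in untreated libraries and 1.47, 1.39 and 1.51 with bleogen pB1. The ratio was 1.58, 0.972 and 1.33 with EGF. This pair was chosen after its values were seen, so the ratio is given as a description.

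Of the 4 IFIT genes, 2 fell with bleogen pB1 and 4 with EGF. The IFIT proteins bind viral RNA with foreign ends and hold it back from translation, and their genes stand in a row on chromosome 10 from IFIT2 at 89283694 to IFIT5 at 89421605. IFIT1 was at 554, 500.3 and 505 CPM in untreated libraries, at 358, 305 and 329 CPM with bleogen pB1, and at 61.7, 58.6 and 57.8 CPM with EGF. Its log2 fold change was -0.65 (adjusted p = 0.00028 in edgeR, SE 0.07) with bleogen pB1 and -3.13 (adjusted p = 2.6e-11, SE 0.07) with EGF. IFIT3, the partner that stabilizes IFIT1, followed the same order, with 739, 663 and 695 CPM, then 486, 436 and 455 CPM, then 104, 118 and 113 CPM. Its log2 fold changes were -0.61 and -2.65.

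IFIT2, the first gene of the row, did not pass with bleogen pB1. Its levels were 289, 263 and 305 CPM in untreated libraries, 276, 248 and 265 CPM with bleogen pB1, and 58.1, 63.6 and 65.9 CPM with EGF. The untreated and bleogen pB1 libraries overlapped, and the log2 fold change was -0.12 (adjusted p = 0.33 in edgeR, SE 0.07), whereas EGF gave -2.19 (adjusted p = 2.1e-10, SE 0.07). The ratio of IFIT2 to IFIT1 counts was 0.522, 0.526 and 0.603 in untreated libraries, 0.770, 0.811 and 0.805 with bleogen pB1, and 0.942, 1.09 and 1.14 with EGF, again a pair chosen after its values were seen. IFIT5, the least abundant of the 4, was at 89.0, 88.6 and 99.6 CPM, at 69.1, 81.7 and 81.8 CPM with bleogen pB1, and at 54.5, 52.1 and 57.4 CPM with EGF. It fell with EGF by 0.76 on the log2 scale, and with bleogen pB1 its log2 fold change was -0.25 (adjusted p = 0.083 in edgeR, SE 0.08).

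**Figure D3:**
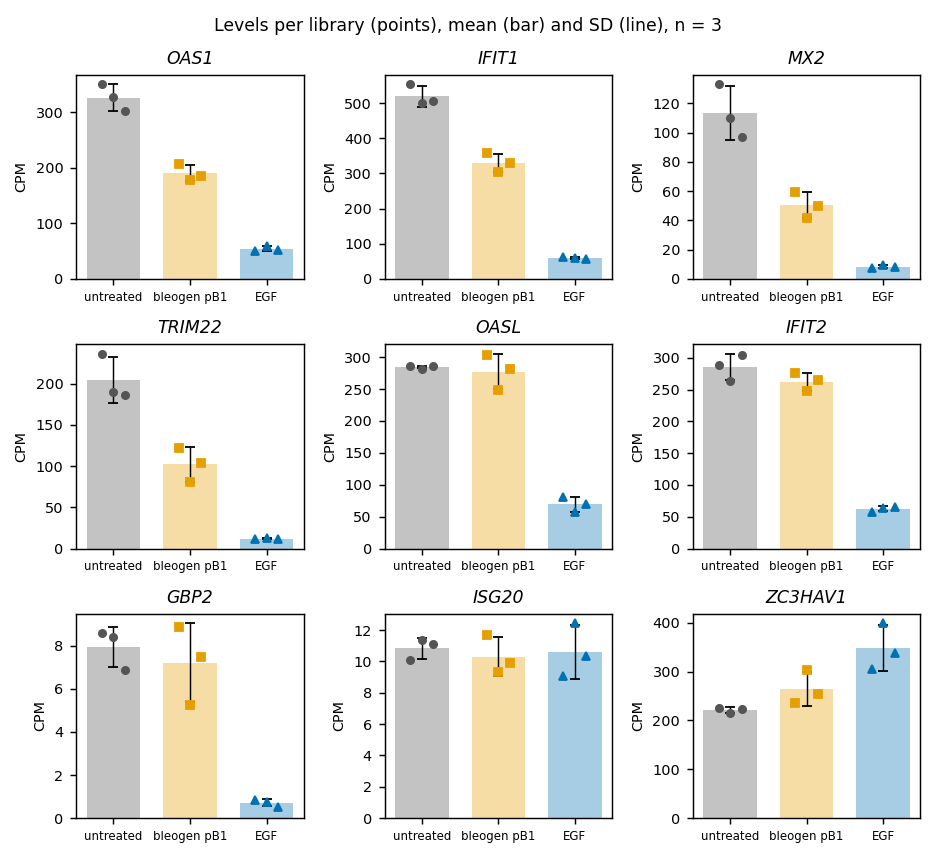
CPM per library (points), mean (bar) and SD (line, n = 3) of 9 of the genes in untreated, bleogen pB1 and EGF libraries, on y axes that start at 0. OAS1, IFIT1, MX2 and TRIM22 step down from untreated to bleogen pB1 to EGF, OASL, IFIT2 and GBP2 are low in the EGF libraries with untreated and bleogen pB1 libraries overlapping, ISG20 overlaps in all groups, and ZC3HAV1 is highest with EGF.

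Of the 4 genes of the membrane barrier, 2 fell with bleogen pB1 and 4 with EGF. IFITM proteins stop viruses at the membrane, and the genes of IFITM2, IFITM1 and IFITM3 lie within chromosome 11 positions 303655 to 329475. IFITM1 was at 757, 759 and 594 CPM in untreated libraries, at 537, 396 and 442 CPM with bleogen pB1, and at 130.5, 163 and 142 CPM with EGF. The log2 fold change was -0.62 (adjusted p = 0.013 in edgeR, SE 0.12) with bleogen pB1 and -2.28 (adjusted p = 1.4e-08, SE 0.13) with EGF. IFITM3 had 1376, 1371 and 1048 CPM in untreated libraries, 1189, 918 and 1033 with bleogen pB1, and 508, 514 and 480.3 with EGF. The first pair of groups overlapped, and the log2 fold changes were -0.27 (edgeR adjusted p = 0.16) and -1.34 (adjusted p = 4.7e-07). IFITM2 was at 103, 104 and 83.5 CPM, at 91.5, 71.0 and 85.8 CPM with bleogen pB1, and at 54.1, 45.7 and 46.0 CPM with EGF, and it passed with EGF alone. The 3 genes are near copies of each other and their counts were not whole numbers, so that reads were divided among them and their separate values are uncertain. BST2 (tetherin), which holds budding virions at the cell surface, fell with both agonists, by 0.70 on the log2 scale with bleogen pB1 and by 3.51 with EGF, from 112, 101 and 93.8 CPM to 75.5, 49.9 and 63.2 CPM and to 8.25, 9.16 and 9.53 CPM.

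Of 6 genes of ISG15 conjugation, 4 fell with bleogen pB1 and 5 with EGF. ISG15 is attached to other proteins by the conjugating enzyme UBE2L6 and ligases such as HERC5, and is removed by USP18. ISG15 was at 465, 470.2 and 411 CPM in untreated libraries, at 338, 246 and 285 CPM with bleogen pB1, and at 85.8, 105 and 103 CPM with EGF. Its log2 fold change was -0.63 (adjusted p = 0.0056 in edgeR, SE 0.11) with bleogen pB1 and -2.19 (adjusted p = 7.3e-09, SE 0.11) with EGF. UBE2L6 was at 305, 276 and 252 CPM, at 195, 153 and 168 CPM with bleogen pB1, and at 58.4, 69.7 and 64.2 CPM with EGF. The modifier and its conjugating enzyme thus stepped down together, and neither gene's groups overlapped. HERC6 went from 68.7, 62.9 and 64.7 CPM to 45.0, 41.9 and 40.8 CPM with bleogen pB1 and to 17.4, 14.5 and 16.8 CPM with EGF, and USP18 fell by 0.58 and 2.00 on the log2 scale. HERC5, the neighbor of HERC6 on chromosome 4, was barely expressed and did not pass with bleogen pB1, at 3.90, 4.18 and 5.02 CPM in untreated, 4.30, 4.87 and 5.29 in bleogen pB1 and 2.35, 2.77 and 2.17 in EGF libraries. With EGF its log2 fold change was -0.85, and it was -0.43, short of the fold limit, in limma on log2(FPKM + 1), which shrinks low values. TRIM25, a ligase that activates the RNA sensor RIG-I, was at 268, 254 and 270.3 CPM in untreated, 238, 249.6 and 239 in bleogen pB1 and 195, 231 and 211 in EGF libraries. Its log2 fold changes were -0.13 and -0.32, and with EGF the adjusted p was 0.00083 in edgeR, short of the fold limit.

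Among the large GTPases and RNF213, 4 of 6 fell with bleogen pB1 and 5 of 6 with EGF. The large GTPases assemble on viral particles or on the membranes of pathogens. MX2, which blocks the nuclear import of retroviral genomes, had the largest fall with bleogen pB1 among the 51 genes, with 133, 109.8 and 96.9 CPM in untreated libraries and 59.7, 41.9 and 49.6 CPM with bleogen pB1. With EGF it was at 7.50, 9.47 and 7.94 CPM. The log2 fold change was -1.17 (adjusted p = 0.00045 in edgeR, SE 0.13) with bleogen pB1 and -3.77 (adjusted p = 1.2e-09, SE 0.16) with EGF. MX1, next to it on chromosome 21, had 53.2, 42.6 and 44.5 CPM, then 26.5, 22.1 and 25.0, then 3.55, 5.64 and 5.10, with log2 fold changes of -0.93 and -3.29. RNF213, a giant ligase that coats intracellular bacteria, was at 246, 189.6 and 224 CPM, at 159, 132 and 156 CPM with bleogen pB1, and at 86.5, 80.0 and 84.3 CPM with EGF. The GBP genes lie in a row on chromosome 1. GBP1 went from 35.5, 31.6 and 35.6 CPM to 23.7, 21.6 and 22.7 CPM with bleogen pB1 and to 5.85, 6.65 and 6.64 CPM with EGF. GBP2 was at 8.58, 8.40 and 6.88 CPM in untreated and 8.89, 5.24 and 7.49 CPM in bleogen pB1 libraries, which overlapped, and at 0.850, 0.755 and 0.530 CPM with EGF, a log2 fold change of -3.47 (adjusted p = 1.8e-07 in edgeR, SE 0.25). The EGF libraries held 11 to 17 counts of it, and its log2 fold change in limma was -1.34 on log2(FPKM + 1) and -2.94 on log2(FPKM + 0.1). GBP3 was at 54.5, 50.4 and 57.0 CPM, at 44.5, 42.6 and 44.4 CPM, and at 38.3, 42.6 and 41.5 CPM. Its log2 fold changes of -0.30 and -0.40 passed the p limit (edgeR adjusted p = 0.033 and 0.00024) and stayed short of the fold limit in both comparisons.

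Among the enzymes that act on RNA, nucleotides or translation, 3 of 9 fell with bleogen pB1 and 7 of 9 with EGF. CMPK2, a mitochondrial nucleotide kinase, was at 106, 89.9 and 93.8 CPM in untreated libraries, at 59.8, 58.6 and 56.3 CPM with bleogen pB1, and at 21.1, 32.2 and 24.0 CPM with EGF. Its neighbor RSAD2 (viperin), which makes a chain-ending nucleotide, fell with EGF by 2.55 on the log2 scale and with bleogen pB1 lay on the limit, at -0.50 after rounding (adjusted p = 0.0013 in edgeR, SE 0.07), just short of 0.5 in size. The GENCODE spans of CMPK2 and RSAD2 overlap on opposite strands, and whether the counting used the strand is not stated. Reads of that overlap may be assigned to either, although the CMPK2 counts were whole numbers in all 9 libraries. SAMD9 went from 376, 325 and 381 CPM to 271, 224 and 245 CPM with bleogen pB1 and to 116, 112 and 109 CPM with EGF. SAMD9L, its neighbor and a regulator of translation like it, fell by 0.69 with bleogen pB1 on the log2 scale and fell by 2.69 with EGF. The kinase EIF2AK2 (PKR), which shuts off translation on double-stranded RNA, the RNA editor ADAR and the helicase DDX60 fell with EGF, by 0.64, 1.16 and 0.94 on the log2 scale, and had log2 fold changes of -0.16, -0.26 and -0.11 with bleogen pB1. Of these last values that of ADAR passed the p limit (edgeR adjusted p = 0.04) and not the fold limit. ISG20, an exonuclease, was at 10.1, 11.3 and 11.1 CPM in untreated, 11.7, 9.33 and 9.88 in bleogen pB1 and 9.05, 12.4 and 10.3 in EGF libraries. All of its groups overlapped, and its log2 fold change was -0.07 (SE 0.13) with bleogen pB1 and -0.03 (adjusted p = 0.84 in edgeR, SE 0.13) with EGF.

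ZC3HAV1 (ZAP), a zinc-finger protein that targets CpG-rich viral RNA for decay, moved in the other direction. It was at 225, 215 and 224 CPM in untreated libraries, at 236, 302 and 254 CPM with bleogen pB1, and at 306, 399 and 339 CPM with EGF. No bleogen pB1 or EGF library was as low as an untreated one. It rose with EGF, with a log2 fold change of 0.66 (adjusted p = 8.3e-05 in edgeR, SE 0.1), and with bleogen pB1 the value was 0.26 (adjusted p = 0.16, SE 0.1). The average transcript length that the files give for ZC3HAV1 was 5795, 5815 and 5732 bases in untreated libraries, 5779, 6214 and 6057 bases with bleogen pB1, and 6707, 6984 and 6842 bases with EGF. The EGF libraries were 18.4% longer on average with no overlap, and ZC3HAV1 was the 1 gene of the 51 whose length moved by more than 10% without overlap, as did 0.570% of 12275 genes with EGF. FPKM divides by this length, and in limma fits to log2 FPKM the log2 fold change with EGF was 0.33 to 0.34, short of the fold limit. Whether the number of transcripts or the mix of longer and shorter forms moved was not tested. For comparison, OAS1 lengths overlapped between groups and ADAR was 0.63% shorter with EGF, without overlap, while PARP9 was 5.05% longer.

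**Figure D4:**
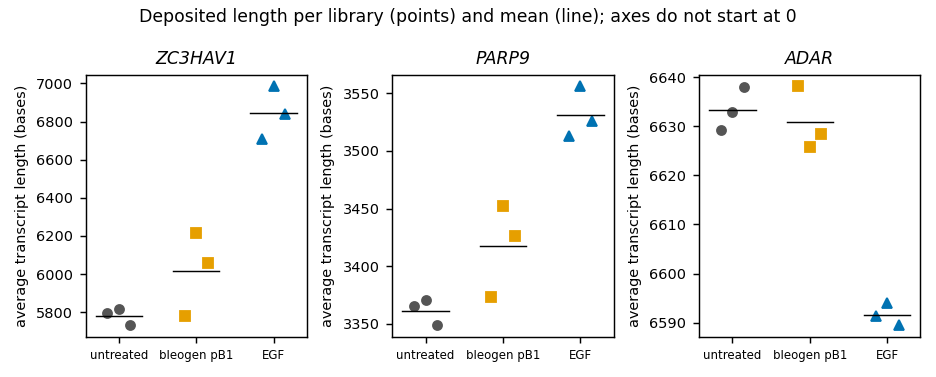
Average transcript length deposited for ZC3HAV1, PARP9 and ADAR in each library (points, bases) with the group mean (line), on y axes that do not start at 0. The 3 EGF libraries of ZC3HAV1 lie between 6707 and 6984 bases, above all 6 others, whereas the y axis of ADAR spans less than 1% of its length.

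Of the 3 PARP genes and DTX3L, 3 fell with bleogen pB1 and 4 with EGF. The PARP9 and DTX3L proteins form a complex that tags histones, and their genes start head to head on chromosome 3. PARP9 was at 292, 265 and 273 CPM in untreated libraries, at 195, 179.7 and 183 CPM with bleogen pB1, and at 67.6, 75.1 and 69.7 CPM with EGF. Its log2 fold change was -0.57 (adjusted p = 0.00033 in edgeR, SE 0.06) with bleogen pB1 and -1.97 (adjusted p = 1.7e-10, SE 0.06) with EGF. DTX3L, whose window holds the same ISRE letters on the other strand, fell by 1.56 on the log2 scale with EGF and had -0.48 (adjusted p = 0.0014 in edgeR, SE 0.07) with bleogen pB1, just short of the fold limit. The gene spans overlap from 122564338 to 122564577, with the same open question of strand. The counts of both genes were not whole numbers in any library, so some reads were divided and their separate values are less certain. PARP12 went from 124, 111 and 111 CPM to 82.9, 77.0 and 79.0 CPM with bleogen pB1 and to 49.9, 55.8 and 54.3 CPM with EGF. PARP14 fell by 0.58 and 1.34 on the log2 scale.

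Of the 4 TRIM and nuclear proteins, 2 fell with bleogen pB1 and 4 with EGF. TRIM22, a ligase that restricts several viruses, had the largest fall of the set with EGF. It was at 236, 190.2 and 186 CPM in untreated libraries, at 122, 80.1 and 103 CPM with bleogen pB1, and at 11.0, 12.6 and 11.99 CPM with EGF. Its log2 fold change was -1.0 (adjusted p = 0.00092 in edgeR, SE 0.13) with bleogen pB1 and -4.10 (adjusted p = 5.5e-10, SE 0.15) with EGF, at which 5.82% of the untreated level was left. The nuclear body protein SP110 had 104, 94.3 and 89.9 CPM, then 71.4, 61.7 and 64.3 with bleogen pB1, then 29.8, 30.4 and 28.8 with EGF. TRIM21, the receptor for antibodies inside the cell, fell with EGF by 1.41 on the log2 scale. With bleogen pB1 its -0.44 passed the p limit (edgeR adjusted p = 0.039) and not the fold limit. The DNA sensor IFI16 had the smallest fall of the 4 with EGF, by 0.60, and was at -0.17 with bleogen pB1.

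Of 10 other genes, most of them named for their induction by interferon, 4 fell with bleogen pB1 and 10 with EGF. IFI44L was at 259, 224 and 208 CPM in untreated libraries, at 153, 113 and 124 CPM with bleogen pB1, and at 12.3, 18.5 and 14.0 CPM with EGF. Its log2 fold changes were -0.82 (adjusted p = 0.0029 in edgeR, SE 0.13) and -3.95 (adjusted p = 5.9e-10, SE 0.15), while its neighbor IFI44 had -0.36 and -1.11. With bleogen pB1 the value of IFI44 passed the p limit (edgeR adjusted p = 0.032) and not the fold limit. XAF1, a proapoptotic factor, was at 280.1, 229 and 217 CPM, at 157, 114 and 131 CPM with bleogen pB1, and at 16.6, 20.1 and 16.1 CPM with EGF. IFI35 went from 103, 90.3 and 82.6 CPM to 62.9, 53.4 and 54.6 CPM and to 19.7, 23.0 and 17.5 CPM. IFI44L, XAF1 and IFI35 fell with both agonists, as did EPSTI1, by 0.54 and 2.30 on the log2 scale. RTP4, a low transcript, was at 9.93, 8.94 and 10.3 CPM, at 6.54, 4.55 and 4.82 CPM with bleogen pB1, and at 0.250, 1.21 and 0.433 CPM with EGF. It fell with EGF (log2 fold change -3.94), and with bleogen pB1 its -0.88 (adjusted p = 0.054 in edgeR, SE 0.23) missed the p limit although the groups did not overlap.

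IFI6, a small membrane protein, was at 604, 595 and 462 CPM in untreated libraries, at 497, 325 and 339 CPM with bleogen pB1, and at 72.6, 117 and 100.3 CPM with EGF. Its untreated and bleogen pB1 libraries overlapped, with a log2 fold change of -0.52 (adjusted p = 0.11 in edgeR, SE 0.18), and with EGF it fell by 2.52. LGALS3BP was at 1043, 1019 and 902 CPM, at 874, 761 and 848 CPM with bleogen pB1, and at 524, 602 and 554 CPM with EGF, and it passed with EGF alone, by 0.82. IFI27 and the scramblase PLSCR1 also fell with EGF, by 2.55 and 1.65, and had -0.46 and -0.44 with bleogen pB1, of which the value of PLSCR1 passed the p limit (edgeR adjusted p = 0.0028) and not the fold limit.

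**Figure D5:**
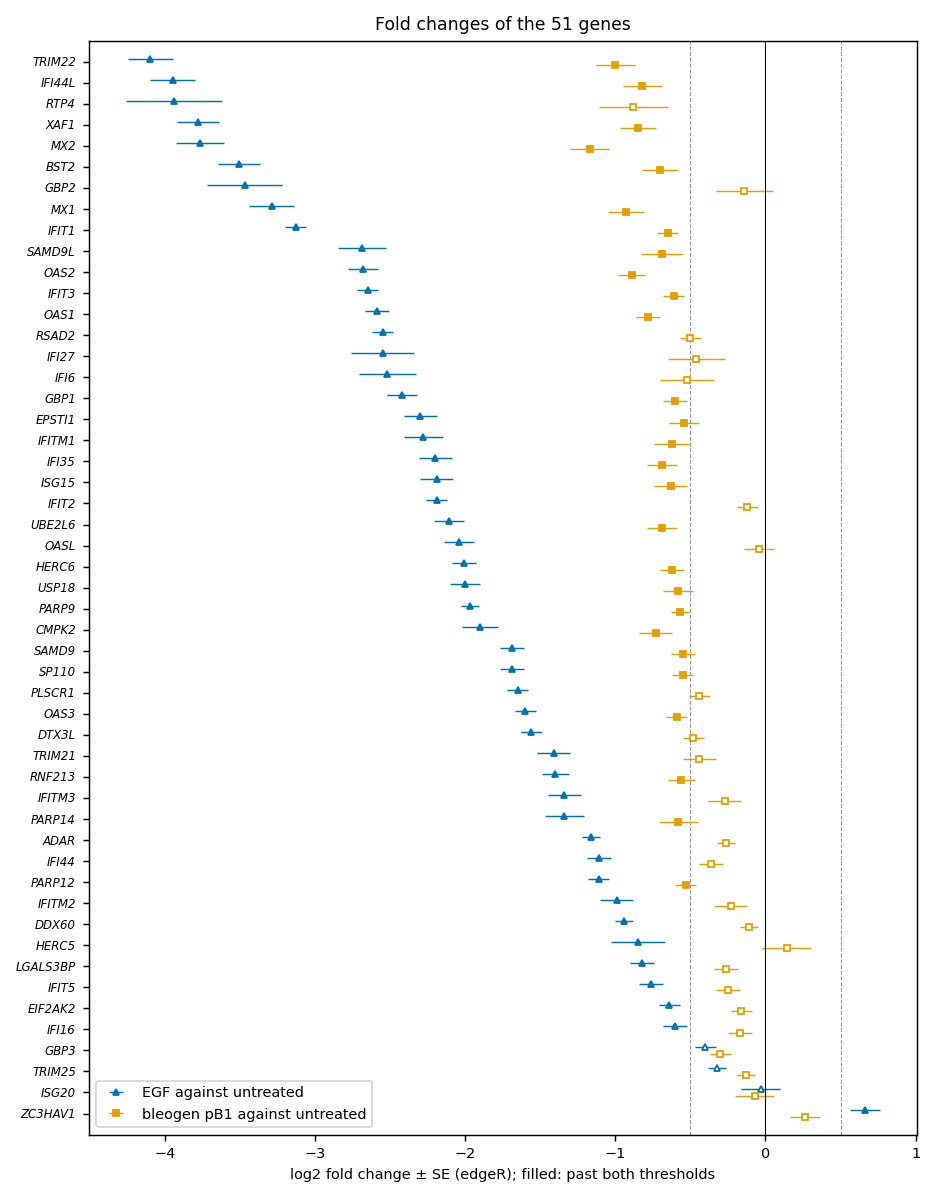
Log2 fold change against untreated libraries (x axis) with its SE from edgeR for each of the 51 genes (y axis), for EGF (triangles) and bleogen pB1 (squares), with filled symbols for genes past both thresholds and dashed lines at a fold limit of 0.5 in size. The EGF values run from -4.10 for TRIM22 to 0.66 for ZC3HAV1 and the bleogen pB1 values from -1.17 for MX2 to 0.26 for ZC3HAV1.

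The agonists were also compared directly, at their different doses. In that contrast 45 of the 51 genes were lower with EGF than with bleogen pB1 (88.2%), where 18.0% of all tested genes were lower, and 0 were higher in edgeR, DESeq2 or limma, where 10.8% of all genes were, with 1 higher at an unadjusted p under 0.05 in edgeR. That gene was ZC3HAV1, at 0.40 (adjusted p = 0.0041 in edgeR, SE 0.1), short of the fold limit. Without bleogen pB1 replicate 2 it passed both limits, at 0.51 (adjusted p = 0.00056 in edgeR), and in limma its log2 difference was 0.13. The median log2 difference of the 51 genes was -1.39, against -0.012 for all genes. In edgeR, IFI44L had a log2 difference of -3.12 and TRIM22 one of -3.10. GBP2, the low transcript, was at -3.33 (adjusted p = 3.8e-07 in edgeR, SE 0.26), and at -1.25 in limma on log2(FPKM + 1) and -2.80 on log2(FPKM + 0.1). OASL and IFIT2 had differences of -2.0 and -2.07, close to their EGF values against untreated cells. IFIT5, at -0.50, passed by little and fell short, at -0.46 to -0.50, without EGF replicate 1 or 2 or bleogen pB1 replicate 2 or 3. The 6 genes that did not pass both limits were TRIM25, GBP3, EIF2AK2, ISG20, ZC3HAV1 and IFI16. HERC5 fell with EGF, whereas its bleogen pB1 mean (4.82 CPM) lay above its untreated mean (4.36 CPM), with overlapping libraries.

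Genes of the pathway that leads to the effectors were examined by lists. STAT2 fell by 0.65 with bleogen pB1 and fell by 2.10 with EGF on the log2 scale. IRF9, the DNA-binding part of ISGF3, fell with EGF by 1.57, and with bleogen pB1 its -0.40 passed the p limit (edgeR adjusted p = 0.039) and not the fold limit. JAK1, JAK2, TYK2 and STAT3 had log2 fold changes of -0.21, -0.13, -0.07 and -0.08 with bleogen pB1 and of -0.48, -0.06, -0.29 and 0.08 with EGF, and did not pass both limits in either.

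Of 6 receptor chains, 0 changed with bleogen pB1 in edgeR, and 0 did at an unadjusted p under 0.05 or in DESeq2 and limma, whereas with EGF IL10RB fell by 0.67 on the log2 scale and IFNGR2, at 0.50, just passed the fold limit. IFNGR2 fell short of it in limma, at 0.42 to 0.44, and with upper-quartile or no scaling factors, at 0.40 and 0.45. At adjusted p alone, in edgeR, the type I chains IFNAR1 and IFNAR2 did not pass either, with log2 fold changes of 0.12 (SE 0.07) and 0.02 (SE 0.13) with EGF. Of 6 interferon regulatory factors tested, IRF7 fell with bleogen pB1 by 0.70, and IRF7, IRF5 and IRF1 fell with EGF, by 2.03, 1.00 and 0.61. Among 7 RNA and DNA sensors, DHX58 fell with bleogen pB1 by 0.54, while 5 fell with EGF, namely DDX58 by 0.96, IFIH1 by 1.56, DHX58 by 1.98, TLR3 by 1.44 and TMEM173 by 1.17. CGAS rose with EGF, by a log2 fold change of 1.02. The list of 6 negative regulators held SOCS1, SOCS3, PIAS1, PTPN1, PTPN2 and PTPN6. Of these 6, 0 changed with bleogen pB1 in edgeR, DESeq2 or limma, with 1 lower at an unadjusted p under 0.05. With EGF SOCS1 and SOCS3 rose (log2 fold changes of 1.80 and 1.23) and PTPN6 fell by 0.77. The list does not cover USP18, which was counted with ISG15 conjugation and fell with both agonists (log2 fold changes of -0.58 with bleogen pB1 and -2.0 with EGF). Of 10 genes known to answer growth factors, 7 rose with EGF, and 0 changed with bleogen pB1 in edgeR, DESeq2 or limma, with 3 higher and 1 lower at an unadjusted p under 0.05 in edgeR.

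The fold changes were also set beside the presence of an ISRE match. With bleogen pB1 the median log2 fold change was -0.53 for the 30 genes with a match and -0.62 for the 13 without one, and with EGF it was -1.67 and -1.90. Among the other tested genes with a window, 11 of the 373 with a match fell with bleogen pB1 (2.95%), and 83 of the 9753 without one (0.851%). With EGF these shares were 28.7% and 20.6%. The 8 of the 51 genes without a window are in none of these groups. Of them MX2, TRIM22, OAS2 and USP18 fell with bleogen pB1, and OASL, IFIT2, GBP2 and IFITM2 did not pass. The genes without a match include OAS1, whose window repeats GAAA with a gap that the search did not cover. Whether the fall depends on an ISRE therefore cannot be read from these groups. The values are descriptions of lists and were given no test.

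Of the markers of other cell types, CD68 was the exception to low levels, with a mean FPKM of 6.65 in untreated and 10.8 in EGF libraries. Summed FPKM was 1.47 to 1.94 in untreated, 1.27 to 1.94 in bleogen pB1 and 0.36 to 0.45 in EGF libraries for 8 fibroblast markers, and 1.88 to 2.56, 1.72 to 2.13 and 1.42 to 1.81 for 6 melanocyte markers, of which 5 were listed. It was 7.22 to 8.15, 7.22 to 7.37 and 11.7 to 12.2 for 7 leukocyte markers, of which 6 were listed, CD68 among them at 11.8, 12.2 and 11.6 CPM in untreated and 21.04, 18.9 and 20.6 CPM in EGF libraries. Of the 3 leukocyte markers tested, 2 were called higher with EGF, CD68 with a log2 fold change of 0.77 and ITGAM with 1.45 (adjusted p = 0.032 in edgeR, SE 0.55). With bleogen pB1 their log2 fold changes ran from -0.14 to 0.39 and did not pass. ITGAM had 8, 50 and 36 counts in EGF and 7, 11 and 17 in untreated libraries, which overlapped, and it did not pass in limma. The leukocyte genes PTPRC and CD3E had at most 6 counts in any library. For 5 endothelial markers the sums were 0.68 to 1.05, 0.18 to 0.30 and 0.04 to 0.09, of which CDH5 was at 2.36, 2.11 and 3.68 CPM in untreated, 0.621, 0.278 and 0.702 in bleogen pB1 and 0.250, 0.0504 and 0 in EGF libraries. With EGF all 3 fibroblast markers tested fell, as did both endothelial markers and 1 of 2 melanocyte markers. With bleogen pB1 CDH5 fell, with a log2 fold change of -2.34 (adjusted p = 0.0077 in edgeR, SE 0.42), while the fibroblast markers ran from -0.33 to 0.16 and the melanocyte markers from -0.43 to -0.04 and did not pass. The endothelial and fibroblast sums were thus lowest in the EGF libraries, as the effectors were, and their part in the results was not tested.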

How the data were processed

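The authors had total RNA from HaCaT cells sequenced by BGI as oligo-dT selected libraries and mapped to GRCh38.p12. Each deposited file gives 1 library, with expected counts per gene, which need not be whole and were not scaled for depth. The FPKM values deposited by the authors divide them by length and by the counted fragments of the library, and the deposited length is an average over a gene's transcripts in that library. The aligner and counter are not given in the sources used here, and neither is the use of strand. Samples were grouped by their labels, which name no batch.

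Expected counts were rounded to whole numbers, a gene without an entry counting as 0. All 9 libraries were fitted at once with edgeR 4.0.16 (R 4.3.3), using filterByExpr, TMM and the quasi-likelihood test, and p-values were adjusted by Benjamini-Hochberg over all 12394 genes tested. Thresholds followed the study, which used DESeq2. The alternatives were DESeq2 1.42.0, limma 3.58.1 on log2(FPKM + 1) or log2(FPKM + 0.1), fits of the 6 libraries compared, other scalings and filters, stricter fold limits, a replicate block and the omission of each library. The fits were tested on simulated data. The members and gene lists were chosen with earlier results of these data known. Genes are given per library where they fell with bleogen pB1 (at most 20), were among the 5 largest falls with EGF at 50 counts or more, rose, did not pass with EGF, belonged to the OAS, IFIT or IFITM families or had 1 of the 5 highest FPKM values, and others were added after their values were seen. Of the promoters to be printed by that rule, ISG15 was such an addition. A gene of the signaling lists is not reported here.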

Additional observations from a re-analysis of the deposited data

How the results depend on the processing

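The number of the 51 genes that fell with bleogen pB1 was 27, and it was 1 with glmTreat and 2 at a log2 fold change of at least 1. It ranged from 20 to 32 when each library was left out in turn, was 34 by the adjusted p alone, and ranged from 19 to 28 over the remaining alternatives. The number past both limits was 48 with EGF and 47 to 48 with a library left out. With EGF it was 40 at a log2 fold change of at least 1, 46 with glmTreat, 50 by the adjusted p alone and 46 to 49 over the remaining alternatives. Between the agonists it was 45, and 44 to 45 with a library left out, of which 1 was higher, ZC3HAV1, without bleogen pB1 replicate 2. In that contrast it was 34 at a log2 fold change of at least 1, 41 with glmTreat, 49 by the adjusted p alone and 44 to 47 over the remaining alternatives. Median log2 fold changes with a library left out were -0.61 to -0.48 with bleogen pB1, -2.03 to -1.93 with EGF and -1.43 to -1.35 between the agonists. The EGF median was -2.10 with upper-quartile factors, which moved the median of all genes to -0.118, and -1.86 in limma on log2(FPKM + 1), with or without a filter. Between the agonists it was -1.48, -1.28, -1.28 and, with a pseudocount of 0.1, -1.51. The offset of log2(FPKM + 1) by construction shrinks low values.

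Near 0 the sign turned with bleogen pB1 for OASL (-0.11 to 0.03 over omissions) and GBP2 (-0.32 to 0.04), both without bleogen pB1 replicate 2, and with EGF for ISG20 (-0.15 to 0.07) without untreated replicate 2 (0.00) or EGF replicate 1. ISG20 between the agonists was -0.05 with upper-quartile factors, -0.03 with no scaling and in limma, -0.02 without bleogen pB1 replicate 2 and from -0.08 without EGF replicate 2 to 0.15 without EGF replicate 1. The cause was not tested. Over single genes and alternatives, 35 values with bleogen pB1 lost the call and 13 gained it, against 6 and 1 with EGF. Same-numbered libraries had correlations from -0.03 to 0.207 between untreated and bleogen pB1 and up to 0.056 elsewhere, so the replicate numbers were not taken as pairs. With a replicate block 27, 48 and 45 genes passed, the same genes as without it.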
